A study of Mus musculus with 6 samples.

Results

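The 44 genes described here encode RNA polymerase I, its initiation factors and the proteins that process and assemble pre-ribosomes. They were taken by symbol from a list of the pathway, out of 54146 genes in the count tables. The list was chosen with earlier results of these data known. By role, 10 belong to transcription by RNA polymerase I (Pol I), 7 to the core of small nucleolar ribonucleoproteins (snoRNPs), 14 to small-subunit assembly and 9 to large-subunit assembly. The remaining 4 encode nucleolar scaffolds and regulators. All 44 passed the filter on low counts and were tested among 13755 genes.

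The cells were 4T1, a BALB/c mouse mammary carcinoma line, in 3 groups of 2 libraries: Ki-67 knockout (Mki67-/-) clone 1, Ki-67 knockout clone 2, and wild type (WT). Every group carried the 4T1 background and was grown in the same medium, and no treatment is named. Each knockout group is a single clone, so what belongs to the knockout and what to that clone cannot be told apart within a group. Total RNA was depleted of ribosomal RNA before sequencing, so the transcripts below are those of the factors, and the ribosomal RNA they make was not analysed here.

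Ribosomes are built in the nucleolus. Pol I, brought to the ribosomal RNA gene promoter by UBTF and the SL1 complex, makes a long precursor RNA. Box C/D and box H/ACA snoRNPs modify this RNA, the small-subunit processome folds and cleaves one part of it, and a separate set of factors matures the large-subunit part. Many of these genes are known targets of the transcription factor MYC in growing cells, and Ki-67 itself is a nucleolar protein in interphase.

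The promoters of these genes were searched for the hexamer CACGTG, the E-box bound by MYC with MAX, for CCGGAAG, a core bound by ETS factors, and for CGCATGC, a core of the NRF1 site. Both strands were read. A promoter ran from 250 bases before to 50 after an annotated start in RefSeq (GRCm38.p6), and 40 of the 44 genes had 50 such promoters. The E-box was found in 9 genes, in 22.5% of the 40, against 8.09% of all 27025 genes in the promoter table and 11.99% of those tested in these libraries. In each window below the E-box is in capitals, and the sequence reads 5′ to 3′ on the strand of the gene.
Imp4, chr1:34439696-34439725, plus strand: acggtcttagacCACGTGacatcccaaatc
Mybbp1a, chr11:72441347-72441376, plus strand: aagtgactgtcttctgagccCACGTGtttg
Nop2, chr6:125131811-125131840, plus strand: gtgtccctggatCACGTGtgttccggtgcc
Pes1, chr11:3963965-3963994, plus strand: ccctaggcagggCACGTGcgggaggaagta
Rrn3, chr16:13780472-13780501, plus strand: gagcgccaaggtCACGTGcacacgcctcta
Tsr1, chr11:74898092-74898121, plus strand: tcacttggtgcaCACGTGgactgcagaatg
Utp20, chr10:88826765-88826794, minus strand: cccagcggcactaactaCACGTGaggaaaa
Utp4, chr8:106893643-106893672, plus strand: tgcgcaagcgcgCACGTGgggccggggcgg
Wdr43, chr17:71616220-71616249, plus strand: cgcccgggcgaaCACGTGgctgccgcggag
Rrn3 held another match 48 bases before its start.

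The ETS core was found in 15 of the 40 genes, 37.5%, against 9.93% of all genes in the table and 21.2% of those tested. The windows below come from 5 genes that changed strongly in the clones. Capitals mark the core, which reads CTTCCGG where it lies on the opposite strand.
Gar1, chr3:129831422-129831451, minus strand: cgcgccgccacaCTTCCGGaaacgtcgcgt
Heatr1, chr13:12395347-12395376, plus strand: cgtagtgagaagCCGGAAGttcctatgagg
Noc2l, chr4:156236001-156236030, plus strand: ggcattctgggcCCGGAAGtgcggcgcacg
Nop2, chr6:125131833-125131862, plus strand: ccggtgccgcggCCGGAAGaggcggggcgt
Utp4, chr8:106893585-106893614, plus strand: attgcctgcgcaCTTCCGGcctcgcgccgc
CGCATGC was found in 4 genes (Taf1a, Taf1c, Ubtf and Utp20), 10% against 4.01% of all genes in the table and 7.55% of those tested. In Taf1a and Ubtf its matches on both strands overlapped each other, and no match of one motif overlapped a match of another in these genes. The letters of none of the 3 motifs were found in the window of Nop56, the gene with the largest change, whose 250 bases upstream of the start follow.
Nop56, chr2:130274162-130274411, plus strand: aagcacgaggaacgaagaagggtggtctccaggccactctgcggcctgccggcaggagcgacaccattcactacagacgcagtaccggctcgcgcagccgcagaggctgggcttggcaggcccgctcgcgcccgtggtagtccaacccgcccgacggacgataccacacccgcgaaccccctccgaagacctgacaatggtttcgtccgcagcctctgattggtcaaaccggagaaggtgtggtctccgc

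The targeted gene was checked first. Mki67, the gene of Ki-67, had 85.8 and 103 CPM in clone 1, 39.9 and 52.7 CPM in clone 2, against 736 and 647 CPM in WT, a log2 fold change of -2.88 ± 0.15 (SE) in clone 1 and -3.90 ± 0.16 in clone 2. The labels do not say which part of the gene was deleted. Values are in CPM, a gene's read count relative to the scaled size of its library. The gene reads came to 22597596 and 22658499 in clone 1, 17103941 and 22275937 in clone 2, against 10428970 and 16852152 in WT. Summed CPM of 8 mammary epithelial markers lay between 5434 and 5809 in the clones, against 3450.0 and 3882 in WT. Of 10 leukocyte markers, only Cd68, Csf1r and Cd74 had enough reads to test. Their list summed to between 5.13 and 7.07 CPM in the clones, against 37.2 and 44.1 CPM in WT, and the 3 moved in both directions. On the log2 scale Cd74 (-6.52) and Cd68 (-2.20) were lower in the mean of both clones, and Csf1r was higher (1.16, adjusted p = 0.00164). The other 7 markers had no read in WT. In the clones S100a8 had 5 and 10 reads in clone 2 and 0 in clone 1, and none of the other 6 had more than 2 reads in a library. A list of 10 fibroblast and endothelial markers summed to between 14.8 and 15.0 CPM in the clones, against 39.8 and 39.7 CPM in WT, with 1 gene, Pdgfra, abundant enough to test. The part of other cell types in the results below was not tested. Whether both libraries of a group are separate cultures is not in the labels. The p-values, also those for the mean of both clones, cover only variation between the 2 libraries of a group, not between clones. In bulk libraries fewer cells of a kind and less RNA per cell cannot be told apart.

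Most of the 44 genes were more abundant in the knockout clones. Against the mean of WT, the mean of both clones was higher for 35 of the 44 genes and lower for 1, and 8 did not pass the test (edgeR's quasi-likelihood test, Benjamini-Hochberg adjusted p under 0.05 over all genes tested). Over all genes tested, 26.6% were higher and 29.4% lower. The log2 fold change was above 0 in 41 of the 44 genes and in 48.8% of all genes. Its median was 0.71 over the 44 genes and -0.02 over all genes. In clone 1, 31 genes were higher and 0 lower, against 24.7% and 26.2% of all genes. No member was lower in clone 1 at an unadjusted p under 0.05 either, nor with DESeq2 or limma-voom. In clone 2, 36 were higher and 1 lower, against 25.3% and 28.2% of all genes. The same WT libraries served both comparisons. Higher in each clone were 31 genes, where 17.9% of all genes were, and 0 were lower in each, against 20% of all genes. Over 2-fold higher in the mean of both clones were 11 genes, 25% of the 44, against 7.32% of all genes tested.

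**Figure D1:**
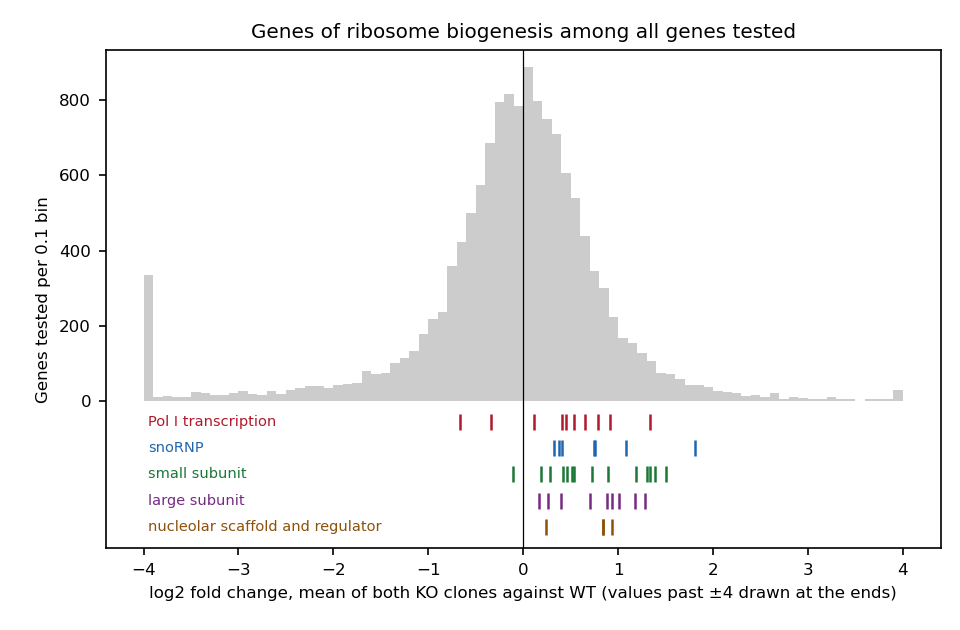
Distribution of the log2 fold change, mean of both knockout clones against WT, over 13755 tested genes (grey, genes per bin of 0.1) with the 44 genes of ribosome biogenesis as ticks by role. All but 3 ticks lie to the right of 0, with their median at 0.71, while the grey distribution is centred at -0.02; genes past 4 in either direction are drawn in the end bins.

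The change was also visible library by library. In 34 of the 44 genes both libraries of both clones lay above both WT libraries, which was so for 27.7% of all genes tested. The converse, all 4 clone libraries below both WT libraries, was found for 0 of the 44 and for 30.1% of all genes. In the other 10 genes the ranges overlapped. The reads of all 44 genes together made up 0.666% and 0.680% of all gene reads in clone 1 and 0.745% and 0.782% in clone 2, against 0.450% and 0.410% in WT.

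**Figure D2:**
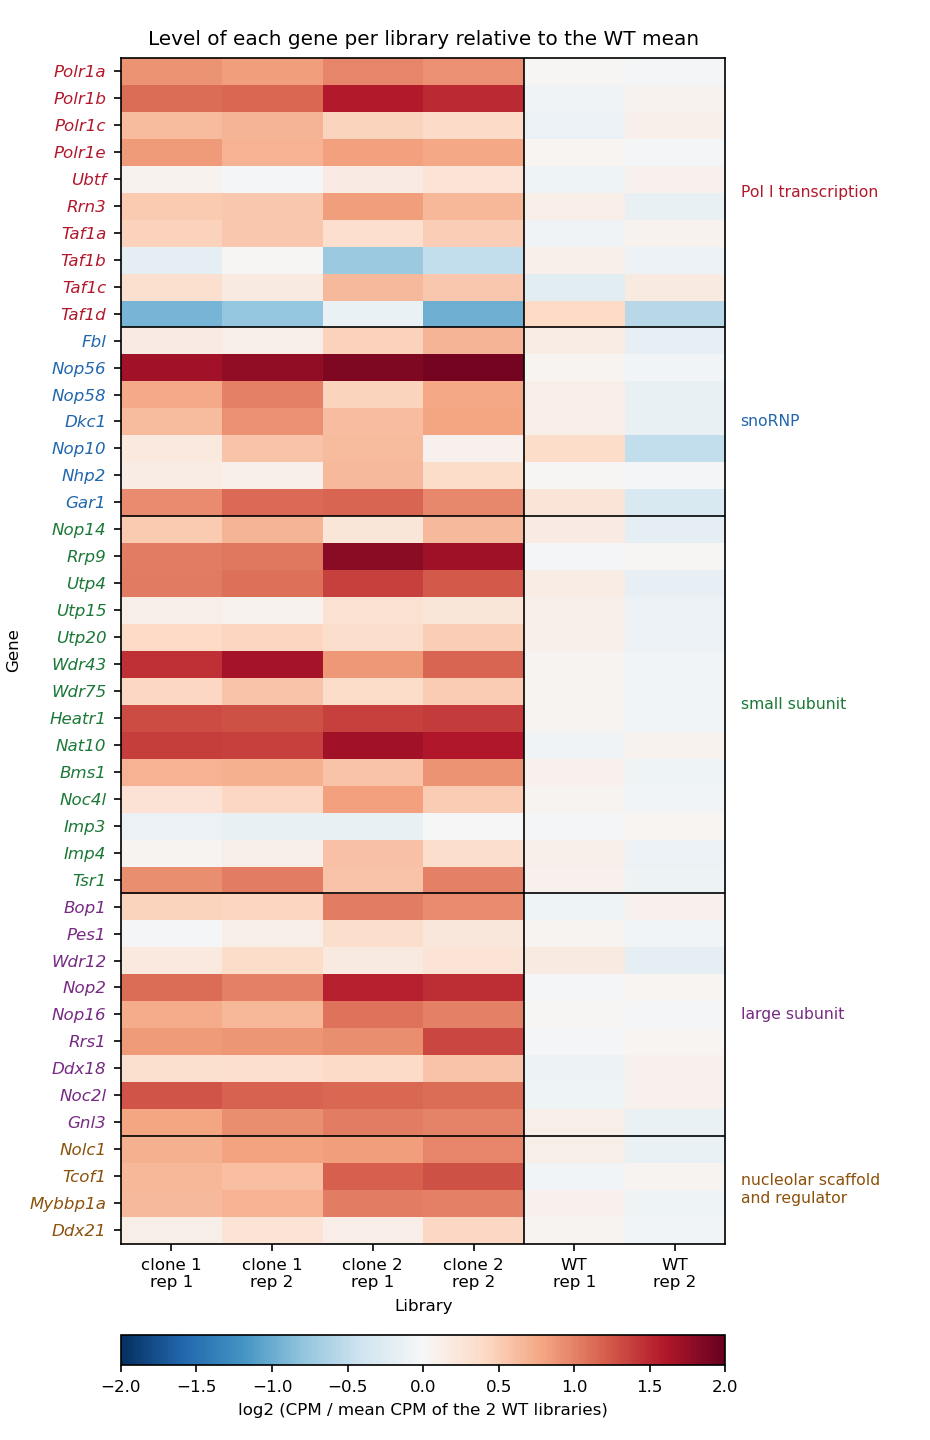
Level of each of the 44 genes in each library as log2 of its CPM over the mean of the 2 WT libraries, ordered by role, with clone 1, clone 2 and WT from left to right. Red marks levels above the WT mean and blue levels below it. Nop56, Rrp9, Nat10, Heatr1 and Nop2 are red in all 4 clone libraries, and Taf1b and Taf1d hold the deepest blue.

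The 4 genes of Pol I subunits all rose, whereas those of the initiation complex SL1 were split. Values in parentheses after the levels of a gene are the log2 fold change of the mean of both clones against WT ± SE, unless a clone is named. Of the 10 genes of Pol I transcription, 7 were higher in the mean of both clones and 1 was lower, with a median of 0.49. The subunit genes were higher by 0.53 to 1.33 on the log2 scale. Polr1b, the subunit that forms the active centre with Polr1a, had 87.4 and 89.3 CPM in clone 1, 122 and 114 CPM in clone 2, against 38.6 and 42.4 CPM in WT. Its log2 fold change was 1.33 ± 0.11 (SE, adjusted p = 3.41e-08). Polr1a, the largest subunit, had 152 and 146 CPM in clone 1, 159.9 and 154 CPM in clone 2, against 83.1 and 79.6 CPM in WT, a log2 fold change of 0.91 ± 0.10 (adjusted p = 1.23e-06). The clone and WT libraries were apart in both genes, by more than the libraries of any group differed. Polr1e, a subunit that takes part in initiation and elongation, had 34.1 and 30.3 CPM in clone 1, 33.1 and 32.1 CPM in clone 2, against 19.3 and 18.3 CPM in WT (0.79 ± 0.12, adjusted p = 2.96e-05). Polr1c, shared with RNA polymerase III, had 100.2 and 103 CPM in clone 1, 87.4 and 83.6 CPM in clone 2, against 59.6 and 69.0 CPM in WT (0.53 ± 0.10, adjusted p = 0.000422). Polr1c lies at chr17:46243920-46248054 (GRCm38), and the median of 655 tested genes on its chromosome was 0.55 in clone 1 and 0.17 in clone 2. With each chromosome's median removed, Polr1c was at 0.17, adjusted p = 0.174.

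Rrn3, which couples Pol I to the promoter complex and responds to growth signals, had 155 and 158 CPM in clone 1, 194 and 172 CPM in clone 2, against 119 and 97.9 CPM in WT. All 4 clone libraries were above WT (0.65 ± 0.11, adjusted p = 0.000107). Ubtf, which binds along the ribosomal RNA genes, had 282 and 263 CPM in clone 1, 302 and 325 CPM in clone 2, against 254 and 285 CPM in WT. Its ranges overlapped and it did not pass the test (0.12 ± 0.10, adjusted p = 0.338), although with each chromosome's median removed it was called at 0.31, adjusted p = 0.0163.

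The 4 genes of SL1, the complex that selects the ribosomal RNA gene promoter, were split, with a median of 0.04. Taf1a had 12.3 and 12.9 CPM in clone 1, 11.2 and 12.5 CPM in clone 2, against 8.48 and 9.39 CPM in WT (0.45 ± 0.14, adjusted p = 0.0137). Without WT replicate 1 that call was lost (0.39). The clone 2 call (adjusted p = 0.0438) was lost without any 1 of the libraries except WT replicate 2. It was also lost with upper-quartile scaling, DESeq2's Wald test, limma-voom, the filter of 1 CPM, only the groups compared, and the replicate block. The clone 1 call (adjusted p = 0.0175) was lost with DESeq2's Wald test, and without WT replicate 1 or either clone 1 library. Taf1c had 23.4 and 21.1 CPM in clone 1, 29.4 and 27.2 CPM in clone 2, against 16.2 and 21.3 CPM in WT (0.41 ± 0.13, adjusted p = 0.0145). Its clone 1 libraries overlapped WT. The Taf1c call was lost without WT replicate 1 (0.25, adjusted p = 0.128), without clone 2 replicate 1 (0.39, adjusted p = 0.0576) and with each chromosome's median removed (0.07, adjusted p = 0.672).

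Taf1b, the SL1 subunit related to TFIIB, was the only one of the 44 genes called lower. It had 20.1 and 23.1 CPM in clone 1, 13.7 and 16.2 CPM in clone 2, against 24.6 and 21.02 CPM in WT. Both clone 2 libraries lay below WT, and clone 1 overlapped it. In clone 2 the log2 fold change was -0.60 ± 0.15 (adjusted p = 0.00314). It was -0.07 ± 0.15 for clone 1 (adjusted p = 0.709) and -0.33 ± 0.13 for their mean (adjusted p = 0.0353). The call for the mean was lost without WT replicate 1 (-0.22, adjusted p = 0.217), without clone 1 replicate 1 (-0.29, adjusted p = 0.122) and without clone 2 replicate 1 (-0.27, adjusted p = 0.122). With DESeq2's Wald test it was at adjusted p = 0.0752, and with no filter on low counts at -0.26, adjusted p = 0.142. The clone 2 call was lost without clone 2 replicate 1 (-0.48, adjusted p = 0.0599).

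Taf1d was the most variable of the 44 genes. It had 235 and 263 CPM in clone 1, 410.0 and 228 CPM in clone 2, against 593 and 305 CPM in WT, and the libraries of a group differed by up to 1.94 times in WT and 1.80 times in clone 2. It did not pass the test (-0.67 ± 0.42, adjusted p = 0.268). Taf1d is a host gene of 8 snoRNAs, all of which lie inside exons of annotated Taf1d transcripts, mostly retained introns, and all 8 are listed with 0 reads in every library. Reads that cover exons of more than 1 gene are kept apart as ambiguous, so reads over these snoRNAs count for neither gene. The cause of the spread of Taf1d was not tested.

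**Figure D3:**
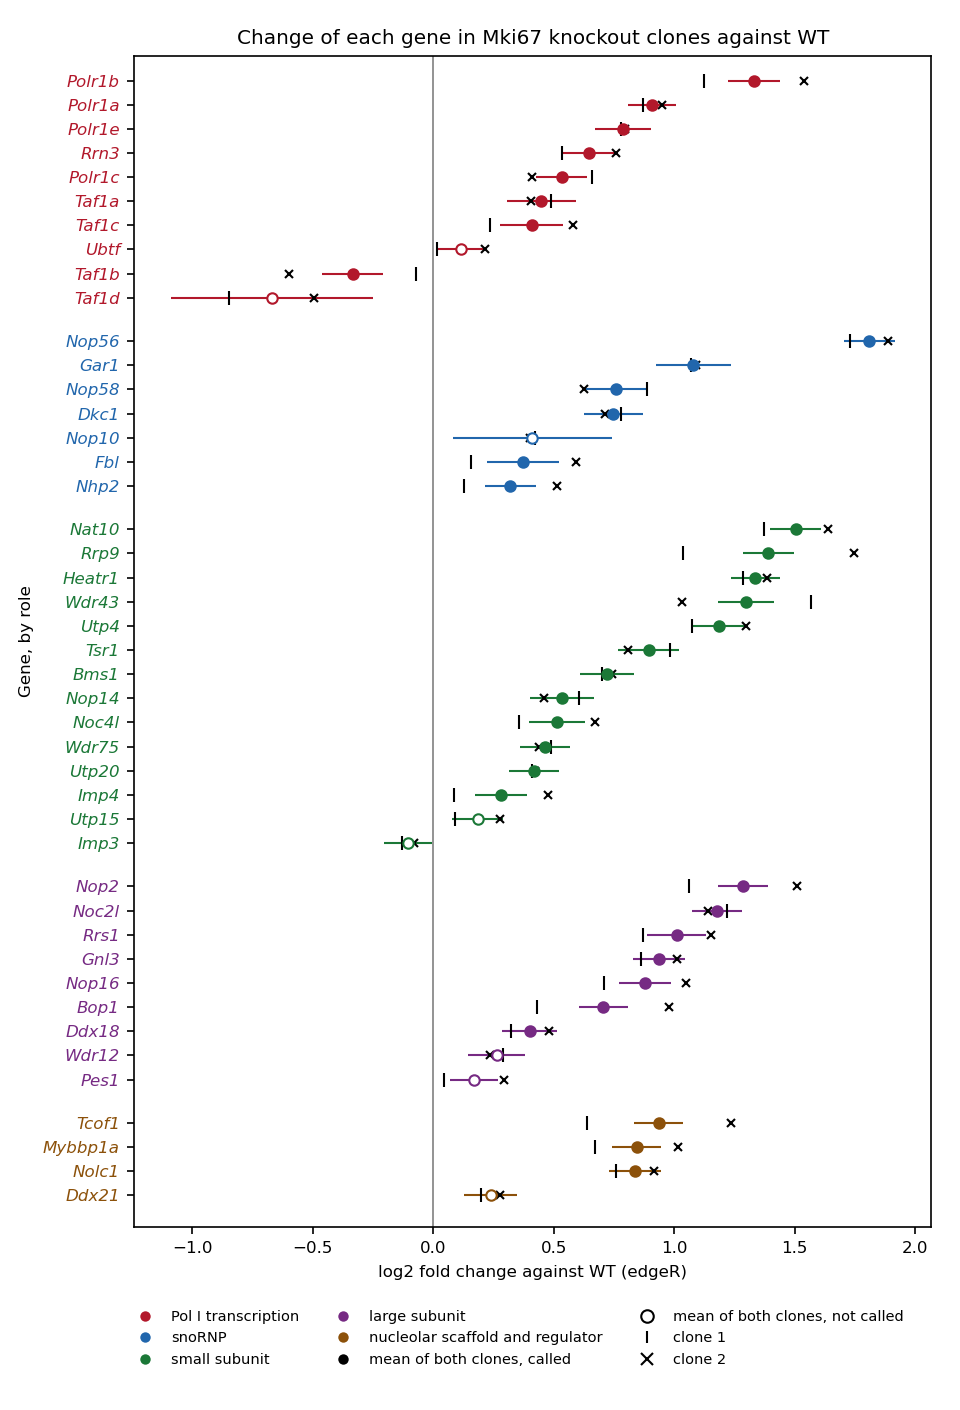
Log2 fold change against WT of each of the 44 genes by role: circles show the mean of both clones (filled where called, open where not) with bars of 1 standard error, vertical strokes clone 1 and crosses clone 2. Nop56 lies farthest to the right at 1.81, and Taf1b, at -0.33, is the 1 filled circle left of 0.

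The protein genes of snoRNPs held the largest single change. Of 7 genes, 6 were higher in the mean of both clones and 1 did not pass the test, with a median of 0.75. Among the 7, Nop56, Nop58 and Fbl belong to the box C/D core, which carries RNA 2′-O-methylation, and all 3 were higher. Snu13, the remaining protein of that core, was counted with the assembly factors outside the 44 and was higher too (0.59 ± 0.14, adjusted p = 0.00203). Nop56, a protein of the box C/D core, at chr2:130274430-130279313, had 539 and 576 CPM in clone 1, 610.0 and 633 CPM in clone 2, against 174 and 162 CPM in WT. Each clone library held more than 3 times the CPM of either WT library, and the log2 fold change was 1.81 ± 0.11 (adjusted p = 8.27e-10). Nop58, its partner in the particle, had 231 and 276 CPM in clone 1, 187 and 235 CPM in clone 2, against 150.4 and 124 CPM in WT (0.76 ± 0.13, adjusted p = 9.38e-05). Fbl, the methyltransferase, had 10.8 and 10.4 CPM in clone 1, 13.2 and 15.4 CPM in clone 2, against 10.7 and 8.62 CPM in WT (0.37 ± 0.15, adjusted p = 0.0428). The Fbl libraries overlapped between clone 1 and WT. Its call was lost without WT replicate 2 (0.22, adjusted p = 0.337), without clone 1 replicate 1 (adjusted p = 0.104) or 2 (adjusted p = 0.0707) and without clone 2 replicate 2 (adjusted p = 0.128). It was also lost with upper-quartile scaling (adjusted p = 0.0962), DESeq2's Wald test (adjusted p = 0.101) and the filter of 1 CPM (adjusted p = 0.0502). With a replicate block in the edgeR fit the Fbl call was lost too (adjusted p = 0.0583).

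Of the box H/ACA core, which carries pseudouridylation, 3 of 4 genes were higher. Gar1 had 25.3 and 28.7 CPM in clone 1, 29.3 and 25.6 CPM in clone 2, against 15.7 and 10.6 CPM in WT (1.08 ± 0.15, adjusted p = 2.03e-05). Dkc1, the pseudouridine synthase, had 75.6 and 91.8 CPM in clone 1, 75.3 and 84.6 CPM in clone 2, against 53.8 and 44.1 CPM in WT (0.75 ± 0.12, adjusted p = 8.06e-05). In both genes all clone libraries were above WT. Nhp2 had 101 and 97.5 CPM in clone 1, 142 and 117 CPM in clone 2, against 92.4 and 89.2 CPM in WT (0.32 ± 0.11, adjusted p = 0.0175), a difference carried mainly by clone 2. That call was lost without WT replicate 2 (0.30, adjusted p = 0.0555), without clone 1 replicate 1 (0.30, adjusted p = 0.0656) and with upper-quartile scaling (0.25, adjusted p = 0.0576). Nop10 had 42.1 and 54.6 CPM in clone 1, 56.9 and 38.7 CPM in clone 2, against 47.1 and 26.1 CPM in WT, with replicates further apart than the groups (0.41 ± 0.33, adjusted p = 0.353). Without WT replicate 1 Nop10 was called (0.89, adjusted p = 0.032), and so it was with no filter on low counts (0.49, adjusted p = 0.00354).

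Genes of small-subunit assembly followed with 12 of 14 higher, none lower and a median of 0.63. At an unadjusted p under 0.05, and with DESeq2 or limma-voom, no gene of this role was lower either. Nat10, the enzyme that acetylates 18S ribosomal RNA, had 147 and 144 CPM in clone 1, 179 and 169.9 CPM in clone 2, against 53.5 and 58.6 CPM in WT (1.51 ± 0.11, adjusted p = 6.6e-09). Rrp9, which binds the U3 snoRNA, had 91.7 and 94.0 CPM in clone 1, 158 and 146 CPM in clone 2, against 44.7 and 45.8 CPM in WT (1.39 ± 0.11, adjusted p = 1.62e-08). Both genes were above WT in all 4 clone libraries, and in clone 2 above clone 1. The UTP-A complex binds the nascent precursor first and is also needed for Pol I transcription. Of its genes in the list described here, 4 of 5 were higher, with a median of 1.19. Nol11, a further protein of that complex, was counted with the pathway genes outside the list. It did not pass the test, and its clone 1 libraries overlapped WT (0.14 ± 0.11, adjusted p = 0.318). Heatr1 had 189.8 and 186 CPM in clone 1, 199 and 204 CPM in clone 2, against 80.3 and 73.9 CPM in WT (1.34 ± 0.10, adjusted p = 1.91e-08). Wdr43 had 350.0 and 400.1 CPM in clone 1, 232 and 285 CPM in clone 2, against 131 and 122 CPM in WT (1.30 ± 0.12, adjusted p = 1.18e-07). Utp4 had 209 and 219 CPM in clone 1, 263 and 238 CPM in clone 2, against 113 and 91.0 CPM in WT (1.19 ± 0.11, adjusted p = 2.66e-07). Libraries of clones and WT were apart in all 3 genes. Wdr75, another gene of the complex, was higher by less (0.47 ± 0.10). Utp15, the last of the 5 listed, had 68.6 and 66.3 CPM in clone 1, 78.2 and 75.2 CPM in clone 2, against 68.3 and 58.5 CPM in WT. It did not pass the test (0.19 ± 0.10, adjusted p = 0.145). It was called without WT replicate 1 (0.31, adjusted p = 0.0305).

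The U3 snoRNP proteins did not move together. Beside Rrp9, Imp4 had 94.2 and 98.05 CPM in clone 1, 136 and 116 CPM in clone 2, against 97.4 and 83.7 CPM in WT (0.28 ± 0.11, adjusted p = 0.0359). Imp3 had 65.6 and 64.2 CPM in clone 1, 64.2 and 70.2 CPM in clone 2, against 68.8 and 73.0 CPM in WT (-0.10 ± 0.10, adjusted p = 0.399). Imp4 and Imp3 overlapped WT in at least 1 clone. The Imp4 call was lost without WT replicate 2 (0.18, adjusted p = 0.229), clone 1 replicate 1 (0.29, adjusted p = 0.0768), clone 1 replicate 2 (0.27, adjusted p = 0.0972) or clone 2 replicate 1 (0.23, adjusted p = 0.1), and with upper-quartile scaling (0.21, adjusted p = 0.112). With each chromosome's median removed Imp3 changed sign, to 0.03, adjusted p = 0.832. The other 6 genes of small-subunit assembly were all higher: Tsr1, a late 40S factor, by 0.89 ± 0.13, Bms1, a GTPase of the processome, by 0.72 ± 0.11, Nop14 by 0.53 ± 0.13, its partner Noc4l by 0.51 ± 0.12, and Utp20 by 0.42 ± 0.10, with Wdr75 as above. Their adjusted p-values lay between 2.07e-05 and 0.00275.

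Genes of large-subunit assembly had the highest median of the 3 processing roles, 0.88, with 7 of 9 higher and none lower. At an unadjusted p under 0.05, and with DESeq2 or limma-voom, none was lower either. Nop2, which methylates 28S ribosomal RNA, had 244 and 226 CPM in clone 1, 329.8 and 312 CPM in clone 2, against 109.8 and 115 CPM in WT (1.29 ± 0.10, adjusted p = 2.98e-08). Noc2l, a pre-60S factor that is also known as an inhibitor of histone acetylation, had 412 and 393 CPM in clone 1, 385 and 377 CPM in clone 2, against 163 and 182 CPM in WT (1.18 ± 0.10, adjusted p = 8.21e-08). Gnl3, the nucleolar GTPase nucleostemin, had 147 and 163 CPM in clone 1, 174 and 169.8 CPM in clone 2, against 93.1 and 77.8 CPM in WT (0.94 ± 0.11, adjusted p = 2.36e-06). In all 3 genes every clone library lay above every WT library. Rrs1, which helps to bring the 5S ribonucleoprotein into the particle, had 96.3 and 98.3 CPM in clone 1, 101 and 135 CPM in clone 2, against 52.0 and 54.3 CPM in WT (1.01 ± 0.12, adjusted p = 3.52e-06). Nop16 was higher by 0.88 ± 0.11 (adjusted p = 4.23e-06) and Ddx18, an RNA helicase, by 0.40 ± 0.11 (adjusted p = 0.00678). In clone 1 alone Ddx18 stood at adjusted p = 0.0467, and that call was lost without any 1 of the libraries except WT replicate 2, with adjusted p between 0.0533 and 0.189.

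The PeBoW complex of Pes1, Bop1 and Wdr12, which processes the large-subunit precursor, had 1 of 3 genes higher. Bop1 had 138 and 137 CPM in clone 1, 207 and 196 CPM in clone 2, against 95.8 and 108 CPM in WT (0.71 ± 0.10, adjusted p = 2.21e-05). Pes1 had 126 and 139 CPM in clone 1, 165 and 150.3 CPM in clone 2, against 134 and 124 CPM in WT (0.17 ± 0.10, adjusted p = 0.165). Wdr12 had 62.9 and 70.9 CPM in clone 1, 62.4 and 66.6 CPM in clone 2, against 62.1 and 47.8 CPM in WT (0.26 ± 0.12, adjusted p = 0.0716). Bop1 separated clones from WT clearly, while Pes1 overlapped WT and Wdr12 cleared the higher WT library only narrowly. Pes1 was called higher in clone 2 (0.29 ± 0.12, adjusted p = 0.0426), but not without any 1 of the libraries except WT replicate 1 (adjusted p between 0.0525 and 0.175). That call was also lost with upper-quartile scaling (0.20, adjusted p = 0.15), the filter of 1 CPM (0.27, adjusted p = 0.0565) and only the groups compared in the fit (0.31, adjusted p = 0.0736). In the averaged clones Pes1 was called with each chromosome's median removed (0.36, adjusted p = 0.00679). Wdr12 was called under that setting (0.43, adjusted p = 0.00687), without WT replicate 1 (0.47, adjusted p = 0.0036) and with no filter on low counts (0.34, adjusted p = 0.0136).

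Among nucleolar scaffolds and regulators, 3 of 4 genes were higher, with a median of 0.84. Tcof1, the gene of treacle, which holds UBTF and Pol I in the nucleolus, had 97.5 and 93.1 CPM in clone 1, 141 and 148 CPM in clone 2, against 59.1 and 63.4 CPM in WT (0.94 ± 0.10, adjusted p = 1.2e-06). Mybbp1a, a nucleolar protein known to repress Pol I transcription, had 595 and 620.0 CPM in clone 1, 770.3 and 768 CPM in clone 2, against 403 and 359 CPM in WT (0.84 ± 0.10, adjusted p = 3.6e-06). Nolc1, a chaperone of snoRNPs, had 304 and 327 CPM in clone 1, 335 and 368 CPM in clone 2, against 202 and 171 CPM in WT (0.84 ± 0.11, adjusted p = 6.9e-06). All 3 were above WT in every clone library. Ddx21, a helicase that links Pol I transcription to processing, had 250.9 and 281 CPM in clone 1, 253 and 309 CPM in clone 2, against 241 and 222 CPM in WT and did not pass the test (0.24 ± 0.11, adjusted p = 0.0731). It was called without WT replicate 1 (0.31, adjusted p = 0.0483), without clone 2 replicate 1 (0.31, adjusted p = 0.0281), with no filter on low counts (0.32, adjusted p = 0.0187) and with each chromosome's median removed (0.63, adjusted p = 0.000172). Ddx21 lies on chromosome 10, where the median of 647 tested genes was -0.40 in the mean of both clones.

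Summed levels differed between the roles. The 7 snoRNP genes summed to 1024 and 1135 CPM in clone 1 and 1113 and 1149 CPM in clone 2, against 544 and 464 CPM in WT. The mean over both clones was 2.19 times that of WT. The same ratio was 1.84 for large-subunit assembly, 1.78 for small-subunit assembly, 1.64 for scaffolds and regulators and 1.09 for Pol I transcription. In the last role the libraries overlapped, with 1102 and 1110.2 CPM in clone 1, 1362 and 1165 CPM in clone 2, against 1216 and 948.8 CPM in WT. Taf1d accounted for most of that spread between libraries. It did not pass the test, but its mean was 449 CPM in WT and 284 CPM over both clones. The net rise of the whole Pol I role was 102 CPM. In snoRNPs Nop56 gave 422 CPM of a net rise of 602 CPM. The ratios of the roles were not tested, and a sum is ruled by its most abundant genes. Nop56 alone gave 15.1% of the net rise of the 44 genes and Mybbp1a 11.01%. The first 5 (Nop56, Mybbp1a, Noc2l, Wdr43 and Nop2) gave 46.7%.

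**Figure D4:**
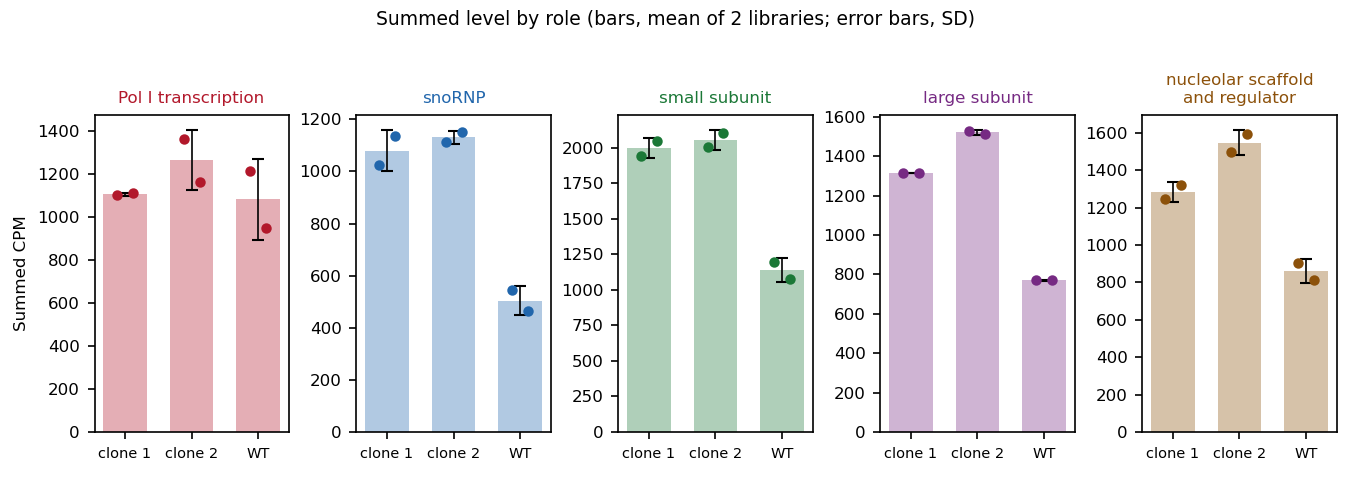
Summed CPM of the genes of each role in clone 1, clone 2 and WT, with bars for the mean of 2 libraries, points for libraries and error bars for the SD. In 4 roles every clone library lies above both WT libraries, and in Pol I transcription the ranges overlap.

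Per gene, the medians and counts of the roles lay closer together. The share of genes whose clone libraries all lay above WT was 6 of 10 in Pol I transcription, 5 of 7 in snoRNPs, 11 of 14 in small-subunit assembly, 8 of 9 in large-subunit assembly and 4 of 4 in scaffolds and regulators. Over all genes tested it was 27.7%. In clone 1 the medians, in the same order, were 0.51, 0.78, 0.65, 0.71 and 0.66. In clone 2 they were 0.50, 0.63, 0.71, 1.01 and 0.96. With so few genes in a role, which share libraries, no test of one role against another was made. Per kilobase of exon, Nop56 had 136 CPM in clone 1, 152 CPM in clone 2, against 40.9 CPM in WT. Nhp2 was higher than Nop56 in WT, with 86.5 CPM per kilobase in clone 1, 113 in clone 2, against 79.2 in WT. Imp3, which did not pass the test, had 70.3 and 72.7 CPM per kilobase in clones 1 and 2, against 76.7 in WT. Fbl had the lowest level of the 44 genes, with 2.52 and 3.40 CPM per kilobase in clones 1 and 2, against 2.29 in WT.

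Some of these levels depend on sequence shared with other genes. Of all stretches of 50 bases in the longest transcript, 70.4% in Fbl, 62.7% in Ddx18, 37.6% in Nop56, 21.3% in Taf1d and 19.7% in Pes1 also occur in transcripts of other genes, mostly processed pseudogenes. For the other 39 genes this share was under 10%, and 23 shared none. Reads that map to several places, 24.7% to 29.3% of the reads of a library, are listed apart in the tables and belong to no gene. Levels of those 5 genes are therefore uncertain.

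The 2 knockout clones differed from each other in 11 of the 44 genes. In clone 2, 9 were higher than in clone 1 and 2 were lower, against 12.1% and 11.4% of all genes tested, and the median difference was 0.16. The other 33 did not pass the test, and neither did 10524 of all 13755 genes, a similar share. The count of higher genes was 3 without clone 1 replicate 1, without clone 1 replicate 2 and without clone 2 replicate 1. Rrp9 had 158 and 146 CPM in clone 2, against 91.7 and 94.0 CPM in clone 1, a difference of 0.71 ± 0.11 (adjusted p = 0.000423). Tcof1 had 141 and 148 CPM in clone 2, against 97.5 and 93.1 CPM in clone 1, a difference of 0.60 ± 0.11 (adjusted p = 0.00158). Bop1 had 207 and 196 CPM in clone 2, against 138 and 137 CPM in clone 1, a difference of 0.55 ± 0.11 (adjusted p = 0.00297). These 3 genes were called in every setting but the one that asks for a change of more than 1.5-fold, where none of the 11 was. Nop2 (0.45 ± 0.11, adjusted p = 0.0087), Polr1b (0.42 ± 0.11, adjusted p = 0.0152), Imp4 (0.39 ± 0.12, adjusted p = 0.0313), Nhp2 (0.38 ± 0.12, adjusted p = 0.0302), Mybbp1a (0.34 ± 0.11, adjusted p = 0.0402) and Nop16 (0.34 ± 0.12, adjusted p = 0.0436) were higher too. Each of these 6 calls was lost without clone 1 replicate 1, without clone 1 replicate 2 and without clone 2 replicate 1, with adjusted p between 0.0589 and 0.349.

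Lower in clone 2 were Taf1b and Wdr43. Wdr43 had 232 and 285 CPM in clone 2, against 350.0 and 400.1 CPM in clone 1, a difference of -0.54 ± 0.13 (adjusted p = 0.00657), and both clones lay above WT. It lies on chromosome 17 at chr17:71615895-71659031, and with each chromosome's median removed the difference was -0.16, adjusted p = 0.399. Without clone 1 replicate 2 it was -0.44, adjusted p = 0.102, and without clone 2 replicate 1 -0.39, adjusted p = 0.126. Taf1b had 13.7 and 16.2 CPM in clone 2, against 20.1 and 23.1 CPM in clone 1, a difference of -0.53 ± 0.15 (adjusted p = 0.0168). Without clone 1 replicate 2 this was -0.43, adjusted p = 0.192, and without clone 2 replicate 1 -0.41, adjusted p = 0.2.

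**Figure D5:**
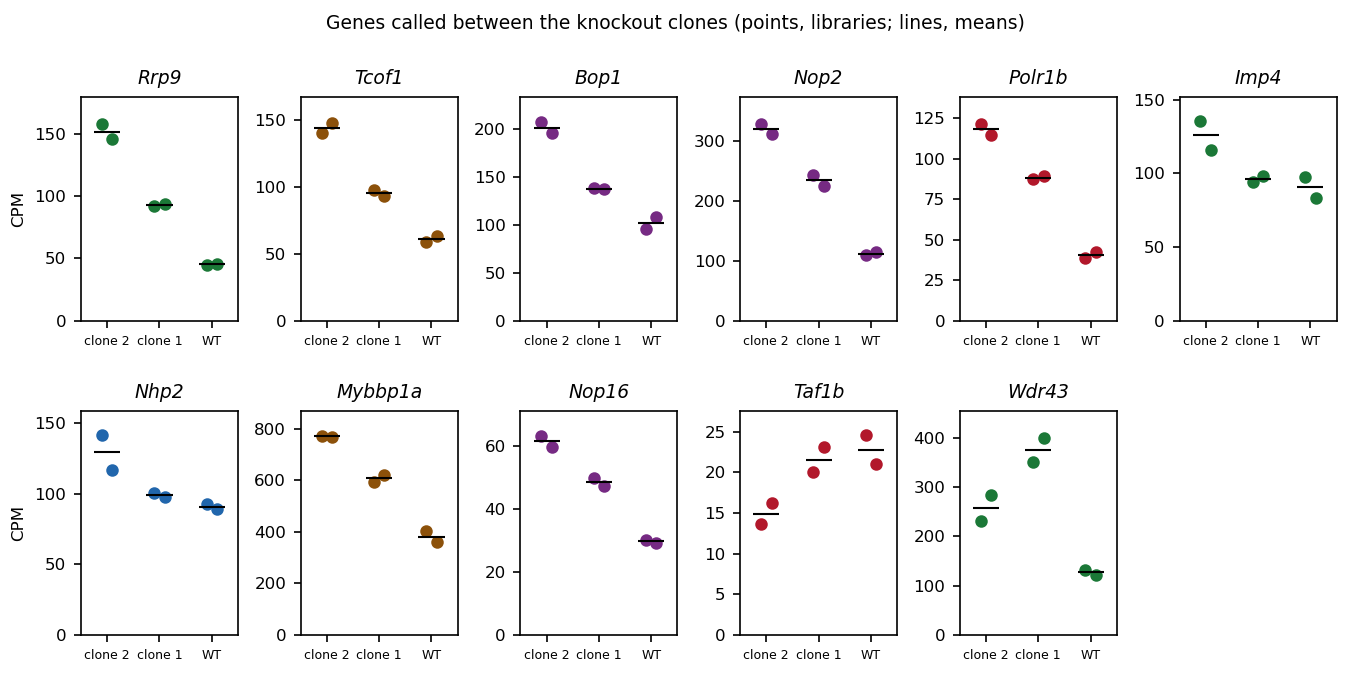
CPM of the 11 genes called between the clones in clone 2, clone 1 and WT, with points for libraries and lines for means. Rrp9, Tcof1 and Bop1 step up in clone 2 above clone 1 and in clone 1 above WT, while Wdr43 is highest in clone 1 and Taf1b lowest in clone 2.

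Promoter motifs and changes were set side by side. The 9 genes with an E-box had a median log2 fold change of 0.84 in the mean of both clones and 8 were called higher, all but Pes1. The 31 genes without one had a median of 0.53 with 23 higher. For the ETS core the medians were 0.79 over 15 genes with it and 0.51 over 25 without it, and 14 and 17 genes were higher. Taf1b is the gene with an ETS core that was lower. For CGCATGC they were 0.41 over 4 genes and 0.75 over 36. These are descriptions of few genes, with wide overlap: genes without an E-box ran from -0.67 to 1.81 and those with one from 0.17 to 1.30. Myc had 209.5 and 188 CPM in clone 1, 228 and 237 CPM in clone 2, against 83.3 and 86.9 CPM in WT, a log2 fold change of 1.34 ± 0.10 (adjusted p = 2.32e-08), and all clone libraries lay above WT.

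Other genes of the pathway moved in both directions. Of 120 outside the 44, all tested, 70 were higher in the mean of both clones, 10 were lower and 40 did not pass the test, with a median of 0.40. Over all genes tested, 26.6% were higher and 29.4% lower, which also stand beside the counts of each list below. Shared sequence and the alternative settings were followed gene by gene for the 44 only, not for these 120. Among 39 others of small-subunit assembly 22 were higher and 1 lower. Wdr36, a processome protein, had 449.7 and 509 CPM in clone 1, 508 and 487 CPM in clone 2, against 162 and 144 CPM in WT (1.68 ± 0.11, adjusted p = 2.97e-09), a change close in size to that of Nop56. Rrp12, an export factor of both subunits, was at 1.39 ± 0.11, and the helicase Ddx52 was lower at -0.57 ± 0.11. Among 50 others of large-subunit assembly 29 were higher and 3 lower. Eif6, which keeps the subunits from joining early, had 433 and 414 CPM in clone 1, 676 and 641 CPM in clone 2, against 162 and 203 CPM in WT (1.53 ± 0.12, adjusted p = 1.54e-08). The helicase Ddx27 was at 1.38 ± 0.11. Lower were Ddx55 (-0.71 ± 0.14), Rrp1 (-0.48 ± 0.10) and Nvl (-0.33 ± 0.10). Nifk, which binds Ki-67 and takes part in pre-ribosomal RNA processing, had 88.9 and 96.3 CPM in clone 1, 79.0 and 97.6 CPM in clone 2, against 83.9 and 73.0 CPM in WT and did not pass the test (0.21 ± 0.11, adjusted p = 0.133).

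The 5 other genes of Pol I were split like SL1. Znrd1, a Pol I subunit, was higher (0.55 ± 0.12, adjusted p = 0.0013), and so was 1 more, Cd3eap, named after its values were seen (0.32 ± 0.11, adjusted p = 0.0177). Ttf1, the termination factor, was lower (-0.40 ± 0.11, adjusted p = 0.00641), and so were the subunit genes Polr1d (-0.36 ± 0.10, adjusted p = 0.00664) and Twistnb (-0.28 ± 0.11, adjusted p = 0.0452). None of the 5 passed the test in both clones. Znrd1 (0.88 ± 0.14, adjusted p = 6.65e-05) and Polr1d (-0.49 ± 0.12, adjusted p = 0.00253) passed it in clone 1, and Cd3eap (0.48 ± 0.12, adjusted p = 0.00359), Twistnb (-0.41 ± 0.13, adjusted p = 0.0138) and Ttf1 (-0.52 ± 0.13, adjusted p = 0.00358) in clone 2. Of these 5 genes Znrd1 differed between the clones by the test, with 19.0 and 18.0 CPM in clone 2, against 27.0 and 31.3 CPM in clone 1 (-0.66 ± 0.13, adjusted p = 0.00251), and it lies on chromosome 17, whose median was 0.17 in clone 2 and 0.55 in clone 1. So the rise seen in the 4 subunit genes of the list did not extend to all Pol I subunit genes. Of 10 snoRNP assembly factors 7 were higher and 2 lower. Ruvbl1, an ATPase of the assembly machinery, was higher (0.76 ± 0.11, adjusted p = 2.8e-05), while Znhit3 (-0.89 ± 0.11, adjusted p = 6.34e-06) and Rpap3 (-0.40 ± 0.12, adjusted p = 0.0104) were lower. Of 16 exosome and other nucleolar genes 10 were higher and 1 lower, led by Exosc2 (0.72 ± 0.10) and Nop9 (0.67 ± 0.12). Npm1, a nucleolar chaperone, had 354 and 448 CPM in clone 1, 216 and 268 CPM in clone 2, against 431 and 343 CPM in WT. Its libraries overlapped between clone 1 and WT, and it was lower in clone 2 (-0.68 ± 0.15, adjusted p = 0.00138) and in the mean (-0.31 ± 0.13, adjusted p = 0.0486), but stood at 0.05 ± 0.15 in clone 1. Ncl, the gene of nucleolin, had 602 and 674 CPM in clone 1, 533 and 774 CPM in clone 2, against 564 and 408 CPM in WT and did not pass the test (0.41 ± 0.17, adjusted p = 0.0644).

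The genes also carry RNAs of the pathway in their introns. Of the 44, 7 host 26 annotated snoRNAs. The 16 that lie inside an annotated exon of the host are listed at 0 in every library. The tables keep reads that cover exons of more than 1 gene apart as ambiguous, so a 0 there is no measure of the RNA. The 10 that lie outside host exons all had reads in at least 1 library. Snord110, in Nop56, had 10.6 and 14.1 CPM in clone 1, 26.4 and 13.99 CPM in clone 2, against 4.34 and 6.495 CPM in WT. Snord11, in Nop58, had 3.57 and 4.95 CPM in clone 1, 5.30 and 4.27 CPM in clone 2, against 1.48 and 3.90 CPM in WT. Every clone library was above WT for Snord110, as was so for 27.7% of all genes tested, and clone 1 overlapped WT for Snord11. Snord110 and Snord11 were named after their values were seen. The 3 snoRNAs of Wdr43 summed to between 5.02 and 6.26 CPM in the clones, against 2.56 and 5.79 CPM in WT. Those of Tsr1 summed to between 0.35 and 0.65 CPM in the clones, against 0.49 and 0.41 CPM in WT. Both sums overlapped WT, and so did Snord70 in Nop58. Gm26287, also in Nop58, had 0.749 and 1.08 CPM in clone 1, 0.648 and 0.302 CPM in clone 2, against 0.197 and 0.295 CPM in WT. With 2 and 5 reads in WT and 7 in clone 2 replicate 2, that library barely cleared WT. Gm25520, in Dkc1, had at most 1 read in a library. Reads of a snoRNA and of the host intron around it cannot be told apart here.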

How the data were processed

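The deposited files hold read counts per gene that STAR 2.6.0c wrote for each library on GRCm38, per the submitters' processing notes, which also name FastQC. Libraries were stranded total RNA after ribosomal RNA depletion, per the labels' protocols. Column 4, the reverse strand, was used: it held 92.3% to 95.7% of the gene reads of both strands. Between 43.2% and 53.1% of a library's reads were assigned to a gene, and rows of unassigned reads (46.9% to 56.8%) entered neither library sizes nor tests. Of 54146 gene IDs, 54079 were matched to symbols in GENCODE M21.

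Counts were tested with edgeR 4.0.16 (R 4.3.3): filterByExpr, TMM scaling, a robust quasi-likelihood fit with 1 term for each of the 3 groups over all 6 libraries, and Benjamini-Hochberg adjustment over 13755 genes, with calls at adjusted p under 0.05. CPM use TMM-scaled library sizes. The mean of both clones weights them equally. Alternatives were DESeq2 1.42.0, limma 3.58.1 (voom), other scalings and filters, unstranded counts, a replicate block, removal of each chromosome's median, a minimum change of 1.5-fold, and each library left out. A group left with 1 library was assumed to vary like the others.

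The genes, lists and tests were chosen with earlier results of these data known. Genes of each role not called and those lower are named, and up to 4 called with the smallest adjusted p are given by library; of other pathway lists, the 2 with the smallest adjusted p and those lower. Promoter sequences come from RefSeq. Replicates of a group differed by more than counting noise (chi-square per degree of freedom from 19.7 to 86.9), and none was treated as a repeat deposit. This does not show that they were separate cultures.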

Additional observations from a re-analysis of the deposited data

Results flagged for a closer look

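The knockout clones differed in 11 genes by the test of the difference itself, clone 2 against clone 1 (edgeR's quasi-likelihood test). The differences, on the log2 scale, were 0.71 for Rrp9, 0.60 for Tcof1, 0.55 for Bop1, 0.45 for Nop2, 0.42 for Polr1b, 0.39 for Imp4, 0.38 for Nhp2, 0.34 for Nop16 and 0.34 for Mybbp1a, all higher in clone 2. Wdr43, at -0.54, and Taf1b, at -0.53, were lower in clone 2. Of all genes tested 12.1% were higher and 11.4% lower in clone 2, so the 9 of 44 higher and the 2 of 44 lower stand against those shares. Not called in either direction were 33 of the 44 genes and 10524 of all 13755. Calls between the clones were thus about as common in the 44 as in all genes tested.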

How the results depend on the processing

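Members called higher ranged from 26 to 31 in clone 1 over the 6 libraries left out in turn, from 28 to 39 in clone 2, from 32 to 37 for the mean of both clones and from 3 to 13 between the clones. Lower calls ranged from 0 to 1 in clone 2, from 0 to 1 for the mean and from 0 to 2 between the clones. The other settings except the minimum change gave 29 to 34, 34 to 39, 32 to 38 and 7 to 13 higher. For the mean, calls over all genes ran from 3218 higher of 13755 with upper-quartile scaling to 4188 of 26172 with no filter. The mean had 0 lower with DESeq2's Wald test and with no filter, and 1 gene was lower between the clones with each chromosome's median removed. A minimum change of 1.5-fold left 15 higher in clone 1, 18 in clone 2, 18 for the mean and 0 between the clones, with 0 lower in any. Of 13755 genes tested, that setting left 1116 higher in clone 1, 1247 in clone 2, 1176 for the mean and 184 between the clones. Lower were 1570, 1788, 1703 and 159 genes, in the same order. Removing the chromosome medians moved the median of all genes by up to 0.11. Of 115 called member results 0 changed sign under any alternative.

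The results that turned sign were all uncalled in the comparison where they turned, though Fbl, Imp4, Pes1, Taf1c and Taf1b were called in others. With upper-quartile scaling in clone 1, Ubtf was at -0.041 and Pes1 at -0.011. With no filter Taf1b was at 0.011 in clone 1. With chromosome medians removed Taf1c was at -0.047 and Utp15 at -0.012 in clone 1, and Imp3 at 0.064 in clone 2 and 0.028 for the mean. Over the libraries left out in turn, clone 1 values ran between -0.057 and 0.10 for Ubtf, -0.018 and 0.11 for Pes1, -0.19 and 0.044 for Taf1b, -0.018 and 0.21 for Utp15, -0.0038 and 0.31 for Fbl and -0.019 and 0.21 for Imp4. Values of Taf1d, KO clone 2 against WT, ran between -0.97 and 0.071, with the highest reached without WT replicate 1. The cause was not tested.

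Same-numbered replicates did not deviate together over all genes tested (correlations of deviations -0.16 for clone 1 with WT, 0.08 for clone 2 with WT and 0.00 between the clones). The correlations cannot show whether these libraries shared a batch or were paired, and the labels give only the number. With the replicate block, 30 genes were higher in clone 1, 34 in clone 2, 34 for the mean, where the Fbl call was lost (0.37, adjusted p = 0.0583), and 7 between the clones. Groups of 2 libraries limit the precision of every value here, and the depth of WT replicate 1 is the lowest.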
